A study of Mus musculus with 2 samples.

Results

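The barcodes described here are connective tissue candidates of the mouse limb at E12.5 (days of embryonic development), chosen by 4 genes: Hoxb4 and Hoxc5, transcription factors of anterior Hox paralogous groups, Pappa2, a secreted protease that cuts binding proteins of insulin-like growth factors, and C1qtnf3, a secreted protein of the C1q and TNF family. A barcode, the tag of 1 droplet and normally of 1 cell, was a member if at least 2 of these 4 genes had a UMI and none of Myog and Myf5 (muscle lineage), Cdh5 (endothelium), Ptprc (immune cells) and Sox10 (Schwann and neural crest cells) had any. A UMI (unique molecular identifier) stands for 1 captured RNA molecule. The rule found 111 members among 12271 kept E12.5 barcodes, which is 0.905% (95% binomial interval 0.745 to 1.09), and among 18721 barcodes deposited in all. The study profiled skeletal muscle tissue of wild-type C57Bl/6 limbs, with fore- and hindlimbs in the same library, at E12.5 and at E15.5, as 1 library per age. No source used here gives how many embryos were pooled. With 1 library there are no replicates, so nothing below was tested, and every interval is a 95% interval that covers counting error only.

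Hox genes lie in 4 clusters, A to D, and are numbered by their order along each cluster into paralogous groups. In embryos, genes with low numbers are active from the head and neck downwards and genes with high numbers start further back, and in the limb the high numbers are used a second time to pattern the upper arm, the forearm and the hand in turn. The proteins Meis1 and Meis2 bind DNA together with Hox and Pbx proteins and mark the proximal limb next to the trunk. Limb connective tissue comes from lateral plate mesoderm, marked by Prrx1, while the muscle cells it surrounds migrate in from the somites.

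Of the rule genes, Hoxb4 lies on chromosome 11 (96318267 to 96321638), Hoxc5 on chromosome 15 (102967443 to 103017429), Pappa2 on chromosome 1 (158711727 to 158980490, minus strand) and C1qtnf3 on chromosome 15 (10952332 to 10980150) of GRCm38. The annotated span of Hoxc5 also covers Hoxc6, Hoxc8 and Hoxc9 with 0 shared exon bases, and it shares 166 exon bases with Hoxc10 on the same strand. Promoter sequences are shown for the 3 of the 4 rule genes that the RefSeq promoter table holds, and for Hoxa2, a Hox gene of a cluster that the rule did not use. Each is the stretch of 250 bases before the RefSeq start on GRCm38.p6, read 5′ to 3′ on the gene's strand. They stand at chr11:96318017-96318266 for Hoxb4, chr1:158958176-158958425 (minus strand) for Pappa2, chr15:10952082-10952331 for C1qtnf3 and chr6:52164832-52165081 (minus strand) for Hoxa2. Capitals mark matches, on either strand, to TGACAG, the core bound by Meis proteins, or to TGATNNAT, a site shape bound by Pbx and Hox proteins together.
Hoxb4: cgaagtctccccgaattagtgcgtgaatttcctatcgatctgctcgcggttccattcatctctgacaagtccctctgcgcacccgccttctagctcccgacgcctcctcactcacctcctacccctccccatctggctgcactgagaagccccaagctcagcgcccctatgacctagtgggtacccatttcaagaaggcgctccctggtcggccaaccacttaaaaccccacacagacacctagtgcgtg
Pappa2: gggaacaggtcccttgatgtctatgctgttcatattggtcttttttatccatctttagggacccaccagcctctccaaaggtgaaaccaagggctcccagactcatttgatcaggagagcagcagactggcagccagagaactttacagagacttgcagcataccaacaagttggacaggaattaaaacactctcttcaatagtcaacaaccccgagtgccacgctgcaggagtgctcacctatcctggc
C1qtnf3: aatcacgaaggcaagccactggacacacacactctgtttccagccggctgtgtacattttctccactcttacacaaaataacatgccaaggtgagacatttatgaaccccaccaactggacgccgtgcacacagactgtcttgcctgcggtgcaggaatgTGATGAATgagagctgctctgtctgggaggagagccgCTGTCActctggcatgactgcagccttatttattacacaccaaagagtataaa
Hoxa2: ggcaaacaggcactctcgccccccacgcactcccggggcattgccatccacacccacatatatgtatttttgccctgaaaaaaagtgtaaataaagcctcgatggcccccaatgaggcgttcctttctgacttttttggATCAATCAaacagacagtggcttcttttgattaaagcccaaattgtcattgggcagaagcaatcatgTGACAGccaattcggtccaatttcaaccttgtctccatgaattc
The C1qtnf3 and Hoxa2 windows held 1 match of each kind, and the Hoxb4 and Pappa2 windows held none. Hoxa2 is shown because it held both. The windows of Hoxc4, Irx3 and Pax1, also searched and not printed, held none of the motifs. Among 32851 promoter windows of the same length, 15.9% held TGACAG and 7.68% held TGATNNAT. Another motif searched, CTTTGA, the core bound by TCF and LEF proteins, was in 13.8% of all windows and in none of these 4.

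The rule rested on few molecules. Hoxb4 had a UMI in 84 members (113 UMIs in all), Hoxc5 in 83 (105 UMIs), Pappa2 in 44 (62 UMIs) and C1qtnf3 in 21 (27 UMIs). These values chose the members and are given as a description. Of the members, 101 had exactly 2 of the genes, 10 had 3 and 0 had all 4. Just outside the rule lay 743 barcodes with exactly 1 of the genes and no exclusion gene, and 9 barcodes with 2 or more that had a UMI of Myog (7), Cdh5 (1) or Sox10 (1). Hoxb4 with Hoxc5 alone was the most frequent combination, in 47 members. Hoxc5 with Pappa2 made up 22, Hoxb4 with Pappa2 14 and Hoxb4 with C1qtnf3 13. Pappa2 and C1qtnf3 were found together in 1 member only, beside Hoxb4. In thinned barcodes of the whole library Hoxb4 was found in 10.3% of 213 barcodes with Hoxc5 and in 2.55% of those without. Hoxc5 was found in 16.9% of 59 barcodes with Pappa2 (8.44 to 29.0). With C1qtnf3 it was found in 1 of 63 barcodes (1.59%, 0.0402 to 8.53). That interval overlaps the one with Pappa2 and holds the 2.88% of barcodes without C1qtnf3.

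Members were deeper than the rest of the library. Their median was 4024 UMIs, against 2444 in the 12160 other kept barcodes and 3043 in the barcodes with 1 rule gene. Levels are therefore given in CPM, a gene's UMIs summed over a group and scaled to a fixed total of the group's UMIs, where 1 UMI in the members is 2.11 CPM. Shares of barcodes with a UMI were taken after each barcode was thinned at random to 2000 UMIs, which left out shallower barcodes and kept 103 members. A doublet, a droplet that caught more than 1 cell, can also hold 2 rule genes. Of the members, 30 (27.0%) were among the 1270 barcodes with the highest doublet scores, against 10.2% of the others. The share was 20.7% in barcodes with 1 rule gene. In neighbours chosen by like rules, described further on, it was from 19.7% to 30.1%, with median depths from 3100 to 3347 UMIs. Several results moved when doublet-scored barcodes were left out, and the values without them are given for the Hox, hindlimb and cartilage genes. Calls of listed genes that end without them include Alx4 (log2 ratio -0.77 with and -0.03 without), Igfbp7 (-1.41 and -0.15), Aldh1a2 (-1.16 and -0.37), Kera (-0.70 and -0.45), Pappa (1.15 and 0.57) and Hoxc11 (-1.08 and -0.36, both set by the floor for 0 UMIs). The libraries share 17 barcode sequences, 0 of them in members.

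The members sat in 3 of 25 clusters for the most part. The clusters were built without the rule genes, without any other Hox gene and without 25 proliferation genes. Cluster 15, with Apcdd1, Calb2, Plxdc2 and Lix1 among its leading genes, held 32 members, which were 8.18% of its 391 barcodes. Calb2 itself had 3 UMIs in all members. Cluster 2, led by Ebf2, Egfl6, Tshz2 and Meis2, held 27 of 1148, and cluster 8, led by histone and mitotic genes, held 31 of 741. The remaining 21 were spread over 9 other clusters, and 11 of these were among the doublet-scored barcodes. The rule gene Pappa2 was itself among the leading genes of cluster 15, and Hoxb4 among those of cluster 2. The clusters are therefore not independent of the rule genes. As the plot of marker combinations shows, 21 of the 44 members with Pappa2 were in cluster 15, and 11 of the 13 members with Hoxb4 and C1qtnf3 alone were in cluster 2. The clusters were left unnamed, since their leading genes are no list of a cell type fixed for this work.

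**Figure D1:**
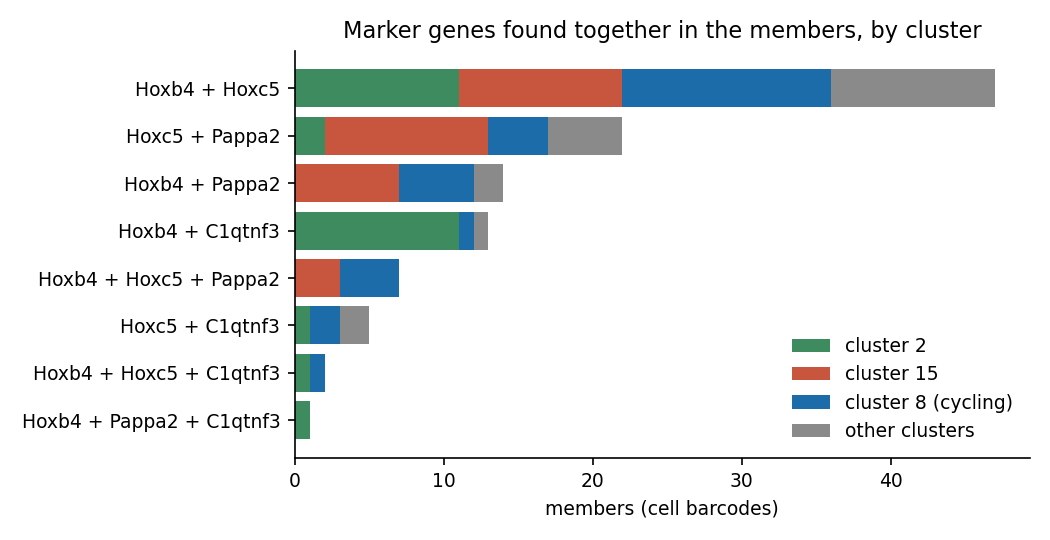
Each bar is a combination of rule genes found in the same barcode, its length is the number of members, and the colours are their clusters. Hoxb4 with Hoxc5 (47 members) was spread over all clusters shown, Pappa2 lay mostly in clusters 15 and 8, and Hoxb4 with C1qtnf3 lay mostly in cluster 2.

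The label of these barcodes names proximal mesenchyme, and it was checked against markers. Prrx1, which marks limb mesenchyme, was at 744 CPM in members and 788 CPM in the others, and 65.0% of thinned members had a UMI of it. Pdgfra, a receptor of mesenchymal cells, was at 434 CPM against 344 CPM. Markers of other lineages were low: 99.0 CPM over 10 muscle genes, 14.7 CPM over 8 endothelial genes, 6.32 CPM over 8 immune genes and 21.1 CPM over 6 Schwann and neural crest genes. Pax3, Pax7, Pecam1, Emcn, Tyrobp, C1qa, Foxd3 and Cdh19 were at 0 in the members. In the others Pax7 (10.3 CPM), Pecam1 (20.5), Emcn (8.96) and Tyrobp (6.36) were above the 6.32 CPM that 3 UMIs in the members would give, and Pax3, C1qa, Foxd3 and Cdh19 were under this floor. The 5 exclusion genes were left out of these sums, but the rule takes away cells that carry them, so low values are no finding. Markers of other cell types were 158 CPM over 8 erythroid genes (2475 in the others), 276 CPM over 7 mural genes (313), 52.7 CPM over 8 epithelial genes (28.5) and 179 CPM over 6 neuron genes (71.5). Of the epithelial UMIs, 10 were of the keratin Krt5 in 1 member. Neuron genes were at 344, 199 and 117 CPM in members of clusters 15, 2 and 8. The rest of these clusters had 241, 118 and 123 CPM, with overlapping intervals each time. Against the label stood cartilage genes in part of the members, described further on. For the word proximal the genes were mixed. Of 9 measured proximal limb genes 5 were higher and 1, Tbx18, lower (73.7 against 151 CPM). Shox2 of the same list (440.3 against 633 CPM) was lower by less than 1.5-fold. Hoxa10, which patterns the upper limb segment, was at 40.0 against 137 CPM. The part of these cell types in the results was not tested. Each level is a sum over barcodes, so fewer cells with a gene and less RNA per cell cannot be told apart in it.

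Over all 9179 genes at 10 CPM or more in the library, 677 (7.38%) were at least 1.5-fold higher in the members than in the other kept barcodes and 1139 (12.4%) at least 1.5-fold lower. The median log2 ratio was 0.00. At 10 CPM a member gene rests on about 4.75 UMIs, so part of these calls is counting error. Among 3786 genes at 50 CPM or more, 164 (4.33%) were higher and 173 (4.57%) lower. The counts for gene lists below are to be read against these shares.

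The Hox genes that the rule did not use differed by paralogous group. Without Hoxb4 and Hoxc5, the genes of paralogous groups 2 to 6 were all higher in the members when summed by group, and those of groups 9 to 11 were all lower. Group 2 (Hoxa2 and Hoxb2) was at 82.2 CPM in members and 11.7 CPM in the others. Group 3 was at 71.6 against 19.5 CPM, group 4 at 118 against 24.6, group 5 at 86.4 against 25.3 and group 6 at 94.8 against 33.7 CPM. Group 7 hardly differed (14.7 against 14.3 CPM) and group 8, at 31.6 against 44.7 CPM, had an interval of the log2 ratio from -1.34 to 0.23. Group 9 was at 73.7 CPM in members and 134 CPM in the others, group 10 at 101 against 232 and group 11 at 14.7 against 71.4 CPM. No UMI of groups 12 and 13 was found in the members, where the others had 1.56 and 3.83 CPM, both under the 6.32 CPM that 3 UMIs in the members would give. Summed over the 4 clusters, the members thus had more anterior and less posterior Hox RNA than the rest of the library. The change of direction in these sums lay at groups 7 and 8, where the clusters differed. Hoxb7 and Hoxb8 together were higher, at 14.7 against 2.62 CPM on 7 UMIs (log2 ratio 2.49, 1.14 to 3.59). Hoxa7 and Hoxc8 were lower, both at a log2 ratio of -1.04, and Hoxd8 hardly differed (-0.05).

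**Figure D2:**
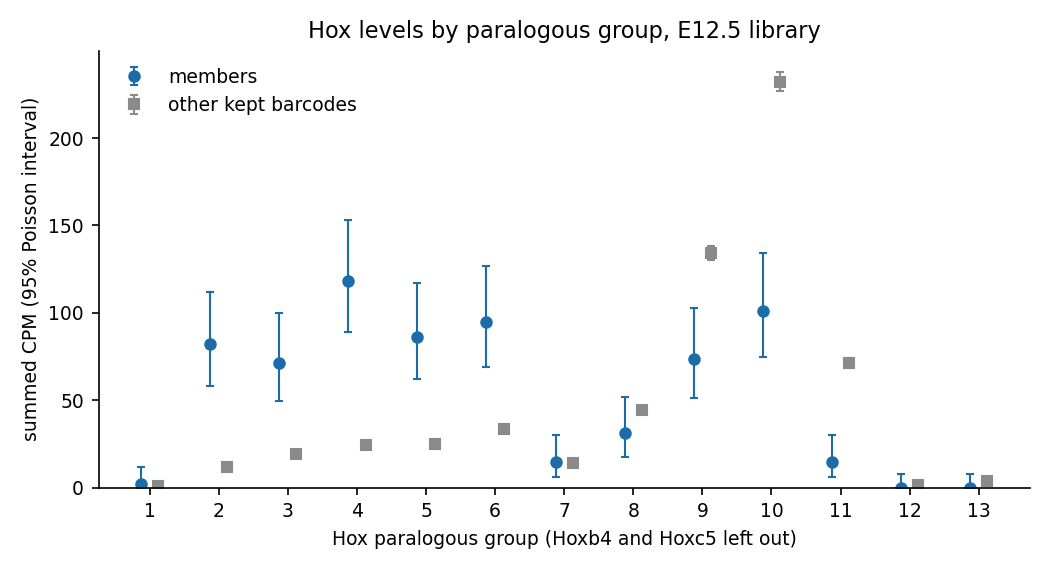
Points are the summed CPM of each Hox paralogous group in the 111 members and the 12160 other kept barcodes, without Hoxb4 and Hoxc5, with 95% Poisson intervals. Members lay above the others in groups 2 to 6 and below them in groups 9 to 11.

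The same pattern was seen in the A and D clusters, which hold neither Hox gene of the rule. Their 9 genes of groups 1 to 6 were at 131 CPM in members and 52.4 CPM in the others (log2 ratio 1.32, 0.93 to 1.68). Their 9 genes of groups 9 to 13 were at 133 CPM against 312 CPM (log2 ratio -1.23, -1.61 to -0.88). Hoxa2 gave 16 UMIs in 12 members (33.7 against 4.69 CPM) and Hoxa5 24 UMIs in 19 members (50.6 against 20.8 CPM). Hoxa5 depended on the rule: without Hoxb4 in it, its log2 ratio was -1.83. Hoxa3 was not higher, at 8.43 against 10.4 CPM. At the posterior end Hoxa10, which patterns the upper limb segment, was at 40.0 CPM against 137, and Hoxa11 and Hoxd11, which pattern the forearm, at 6.32 against 20.2 and 8.43 against 37.9 CPM. Hoxd10 went the other way within its interval, at 27.4 against 20.7 CPM.

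Neighbours of the rule genes within their own clusters were high as well. The other HoxB genes up to group 9 were at 164 CPM in members and 27.5 CPM in the others (log2 ratio 2.58, 2.23 to 2.91), led by Hoxb3 (54.8 against 7.43 CPM), Hoxb2 (48.4 against 7.04) and Hoxb5 (35.8 against 4.51). Hoxb9 had 1 UMI. In the C cluster Hoxc4 was higher, at 96.9 against 15.6 CPM, as was Hoxc6 by a log2 ratio of 1.61 (1.10 to 2.08; 38 UMIs in 28 members), while Hoxc8, Hoxc9 and Hoxc10 were at 16.9, 21.1 and 33.7 CPM in members against 34.7, 40.0 and 74.7 in the others. In the 10 members with 3 rule genes Hoxc6 was lower (log2 ratio -0.40). Over all members, the turn from higher to lower in the C cluster lay between Hoxc6 and Hoxc8. Of the Hox genes of groups 1 to 8 that reached 10 CPM, 3 of 6 were called higher (Hoxa5, Hoxc4 and Hoxc6) and 2 lower (Hoxa7 and Hoxc8), with a median log2 ratio of 0.49. Of those of groups 9 to 13, 8 of 9 were called lower, with a median of -1.14. Hoxd3 and Hoxd4 share 388 exon bases on the same strand, so their low counts (4 and 6 UMIs in members) may not be separable.

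Which rule gene chose the barcodes mattered for this pattern. With Hoxb4 left out of the rule, 37 barcodes remained, and the A and D genes of groups 1 to 6 were at 66.0 CPM against 53.4 (log2 ratio 0.31, -0.70 to 1.15). With Hoxc5 left out there were also 37, with 133 against 53.1 CPM (1.33, 0.59 to 1.97). Leaving out Pappa2 or C1qtnf3 gave log2 ratios of 1.55 and 1.31. The HoxB sum was higher under each of these rules, with log2 ratios from 1.63 to 2.83. Posterior A and D genes were lower under each, from -0.74 to -2.66. Barcodes with exactly 1 rule gene had values between the members and the barcodes with none: 118 against 48.0 CPM for the A and D genes of groups 1 to 6, and 215 against 343 CPM for those of groups 9 to 13.

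Doublet scores moved with the posterior genes. Without the 30 doublet-scored members, the A and D genes of groups 9 to 13 had a log2 ratio of -2.40 (58.1 against 307 CPM), and those of groups 1 to 6 were at 157 against 50.9 CPM (1.63, 1.17 to 2.05). The doublet-scored members had 351 CPM over all genes of groups 9 to 13, and the remaining 81 had 88.9 CPM. The part of doublets in the posterior counts was not tested.

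Hox values also differed from the rest of the clusters in which the members lay. Hox genes were left out of the clustering, but they are not independent of it: the other barcodes of clusters 2 and 15 had more of groups 1 to 8 than the 174 CPM of all other kept barcodes. In cluster 2, groups 1 to 8 without the rule genes were at 624 CPM in members and 303 CPM in the other barcodes, and groups 9 to 13 at 226 against 415 CPM. In cluster 15 the same sums were 569.6 against 312 CPM and 98.2 against 356 CPM. Single groups did not all follow: in cluster 15 group 3 was at 19.6 CPM in members, on 2 UMIs, and 30.3 CPM in the rest, and in cluster 2 group 8 was at 45.2 against 59.4 CPM.

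Thinned shares gave the same order. A UMI of a Hox gene of groups 2 to 5 outside the rule was found in 46.6% of members, in 34.3% of barcodes with 1 rule gene and in 12.6% of those with none. Free RNA in the droplets gives UMIs to cells that lack a gene, so the same shares were taken in barcodes with at least 3 endothelial or 3 immune markers, whose median depths were 4243 and 4926 UMIs. They had 11.9% (7.08 to 18.4) and 7.27% (2.02 to 17.6), with overlapping intervals, and both intervals hold the 12.6% of barcodes with no rule gene. Endothelial barcodes are no plain measure of free RNA here, since before thinning Hoxb5 was found in 7.64% of them and in 0.762% of barcodes with no rule gene. Before thinning the shares were 64.9% in members and 14.8% with no rule gene. For groups 9 to 13 the order was turned round: 23.3% of members, 40.9% with 1 gene and 56.5% with none. Endothelial barcodes had 16.8% (11.1 to 23.9) and immune barcodes 14.5% (6.50 to 26.7), so the members' share of posterior Hox genes lay within the interval of both. Col2a1, the cartilage collagen gene, was found in 29.1% of members (20.6 to 38.9) and in 19.6% of endothelial and 21.8% of immune barcodes, with overlapping intervals.

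**Figure D3:**
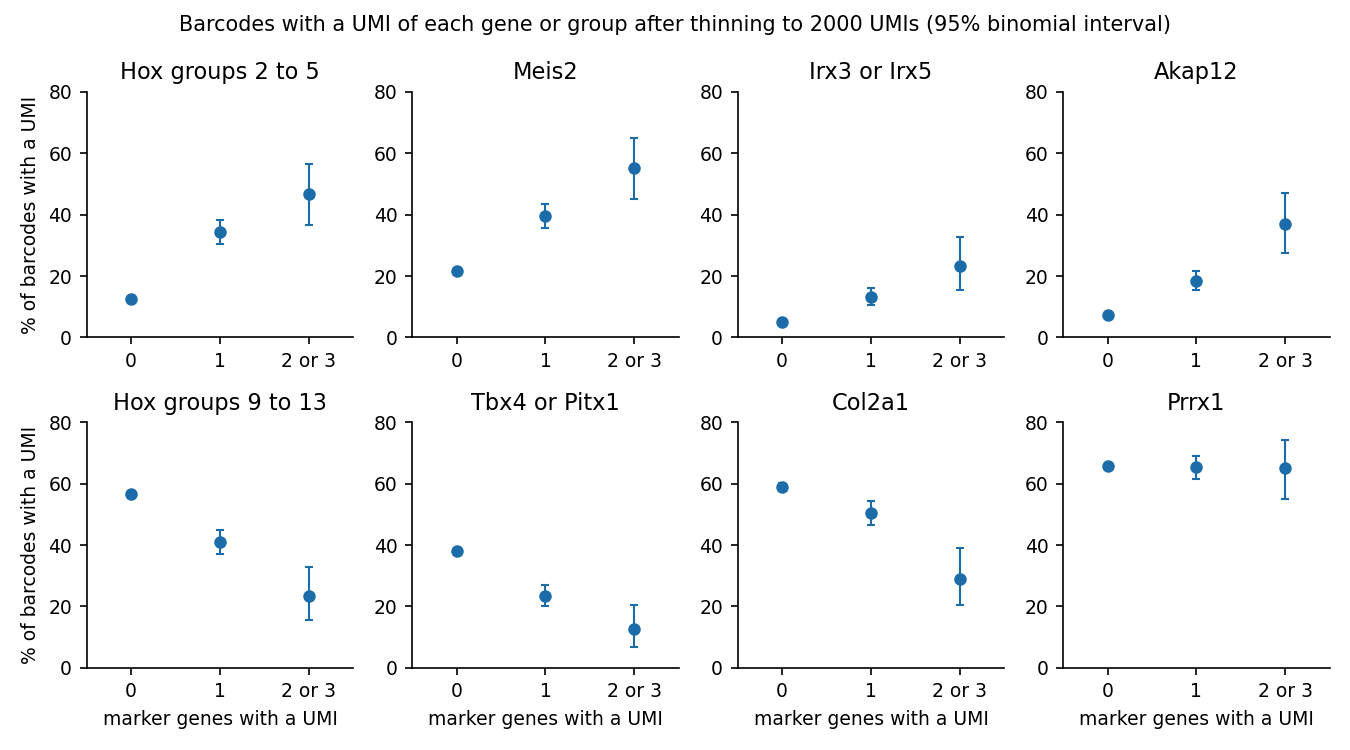
Each panel plots the percentage of barcodes with a UMI of a gene or group after thinning to 2000 UMIs, for barcodes with 0, 1 and 2 or 3 rule genes and no exclusion gene, with 95% binomial intervals. Anterior Hox genes, Meis2, Irx3 or Irx5 and Akap12 were found more often with more rule genes, posterior Hox genes, Tbx4 or Pitx1 and Col2a1 less often, and Prrx1 about equally often.

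Several genes of the proximal limb were higher in the members, though not all. Of 9 measured genes of that list, 5 were higher and 1 lower. Meis2 was at 453 CPM in members and 190.2 in the others, with a UMI in 82 members. This level was shared by barcodes chosen for Aldh1a2 and Ebf2 or for Isl1 and Irx3, described further on, which had 456 and 459 CPM. Meis1 was at 181 against 70.6 CPM in the members and the others. Irx3, a homeobox gene of the early proximal and anterior limb, was at 131 against 24.1 CPM (log2 ratio 2.44, 2.04 to 2.81). Its neighbour Irx5, under 10 CPM in the library, was at 52.7 against 9.02 CPM. Emx2 and Tbx15, both needed for the shoulder blade, were at 116 against 55.1 and 194 against 102 CPM. Tbx18 was lower at 73.7 against 151 CPM, and Shox2, needed for the proximal limb bones, was at 440.3 against 633 CPM, short of the 1.5-fold limit, and past it without doublet-scored barcodes (log2 ratio -1.07). Meis1 and Meis2 together kept log2 ratios from 1.14 to 1.41 when each rule gene in turn was left out, and Irx3 with Irx5 from 1.92 to 3.05.

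Genes of the girdle gave a mixed picture. Of 10 measured genes of the girdle and somite list, 2 were higher and 5 lower. Pax1, which is needed in the shoulder blade and the sclerotome, was too low in the library for the comparison, but 14 members had a UMI of it (31.6 against 3.92 CPM). Pax9, its paralogue, had 3 UMIs in 2 members (6.32 against 16.9 CPM), and Foxc1 was at 19.0 against 83.1 CPM. Nkx3-2 and Uncx had no UMI in members, but at 1.12 and 0.0884 CPM in the others they were under the floor of 6.32 CPM.

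Limb type and the anterior to posterior axis could be followed by transcription factors. All 6 hindlimb genes were lower in members. They were Tbx4, Pitx1, Isl1 and the posterior Hox genes Hoxc9, Hoxc10 and Hoxc11, which are also counted in the Hox results above. Hoxc11 was called by the floor for 0 UMIs, and not without doublet-scored barcodes. Tbx4 was at 12.6 against 52.4 CPM, Pitx1 at 96.9 against 225 CPM and Isl1 at 6.32 against 16.9 CPM. The forelimb gene Tbx5 was lower too, at 35.8 against 81.0 CPM, while Hoxc4 and Hoxc6 of the forelimb list were higher. A UMI of Tbx4 or Pitx1 was found in 12.6% of thinned members and 34.8% of the others, and one of Tbx5 in 4.85% and 12.2%. Without doublet-scored barcodes Pitx1 with Tbx4 was at 58.1 CPM in members and 273 in the others. Posterior genes were lower in 4 of 8 measured: Hand2 at 14.7 against 61.0 CPM, Ptch1 and Gli1, which respond to hedgehog signals, at 116 against 295 and 40.0 against 74.3 CPM, and Hoxd11. Of 6 anterior genes, Irx3 was higher and Alx4, Asb4 and Pax9 were lower.

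Matrix genes of soft connective tissue were high and cartilage genes low. Of 25 measured collagen and matrix genes, 15 were higher and 1, Eln, lower. Col1a1 and Col1a2, the chains of type I collagen, were at 1009 against 428 and 1481 against 703 CPM. Col6a1 of the pericellular type VI collagen was at 173 against 53.9 CPM, and Col14a1, which binds collagen fibrils, at 92.7 against 23.8 CPM. The small leucine-rich proteoglycans Lum (377 against 120.2 CPM), Ogn (261 against 80.8) and Aspn (log2 ratio 1.90) were higher, whereas Dcn (77.9 against 56.5) was under the limit. All 14 measured chondrocyte genes were lower, among them Sox9, the master factor of cartilage, at 400.2 against 756 CPM and Col2a1 at 419 against 1058 CPM.

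Cartilage genes were unevenly spread over the members. Summed over the list, they were at 7899 CPM in the 21 members outside clusters 2, 8 and 15. Members of clusters 2, 15 and 8 had 1265, 638 and 871 CPM. The rest of these clusters had 1515, 751 and 894 CPM, so low sums were not particular to the members. All members together had 2382 CPM, against 4966 CPM in the other kept barcodes. Barcodes chosen for Aldh1a2 and Ebf2 or for Rspo3, Hhip and Apela, described further on, had 1688 and 2214 CPM. Those chosen for Isl1 and Irx3 had 6015 CPM. Doublet-scored members had 4108 CPM and the remaining 81 had 1309 CPM. Without doublet-scored barcodes the log2 ratio of Col2a1 went from -1.34 to -2.49. Col2a1 had a UMI in 45 members, with up to 32 UMIs in 1 of them.

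Members carried several genes of muscle connective tissue, the tissue that patterns muscles. Of 14 measured genes 6 were higher and 1 lower. The higher ones were Osr1, Twist1, Twist2 and the matrix genes Lum, Col1a1 and Col3a1. Summed, the list was at 6781 CPM in members and 4902 CPM in all others. Within clusters 2, 15 and 8 it was at 5459, 8878 and 7275 CPM in members. The rest of these clusters had 6168, 8016 and 7201 CPM, so the sum was not particular to the members. Osr1, a marker of muscle connective tissue progenitors, was at 145 against 62.2 CPM, Twist1 at 265 against 108 and Twist2 at 69.5 against 40.5 CPM. Tcf7l2, a marker of later muscle connective tissue, was lower at 236 against 432 CPM, and Osr2 (67.4 against 74.6 CPM) was within the limit. So was Tcf4 (1317 against 1069 CPM), a different gene from Tcf7l2 and not itself a marker of this tissue. Tcf4 is counted in the list and gave 625 of its 3219 UMIs in members, so the sums rest in part on it. For tendon, none of 5 measured genes was higher, and Mkx and Kera were lower. Scx, the tendon progenitor factor, was at 50.6 against 64.0 CPM. In the perichondrium and osteoblast list Col1a1 was higher, and Runx2, Dlx5, Gdf5 and Sfrp2 were lower, so the median log2 ratio (-1.14) and that of the summed list (0.53) differ in sign. The dermal and subcutaneous list had 4 of 6 measured genes higher, namely Crabp1, Ebf2, Lef1 and Dkk2, and Ebf1 lower. Summed, it was at 1041 CPM in members and 652 CPM in all others. Within clusters 2, 15 and 8 it was at 922, 1149 and 1258 CPM in members and 939, 1060 and 1025 CPM in the rest. Barcodes chosen for Rspo3, Hhip and Apela had 1042 CPM and those chosen for Isl1 and Irx3 729.9 CPM. The level of this sum was thus not particular to the members.

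**Figure D4:**
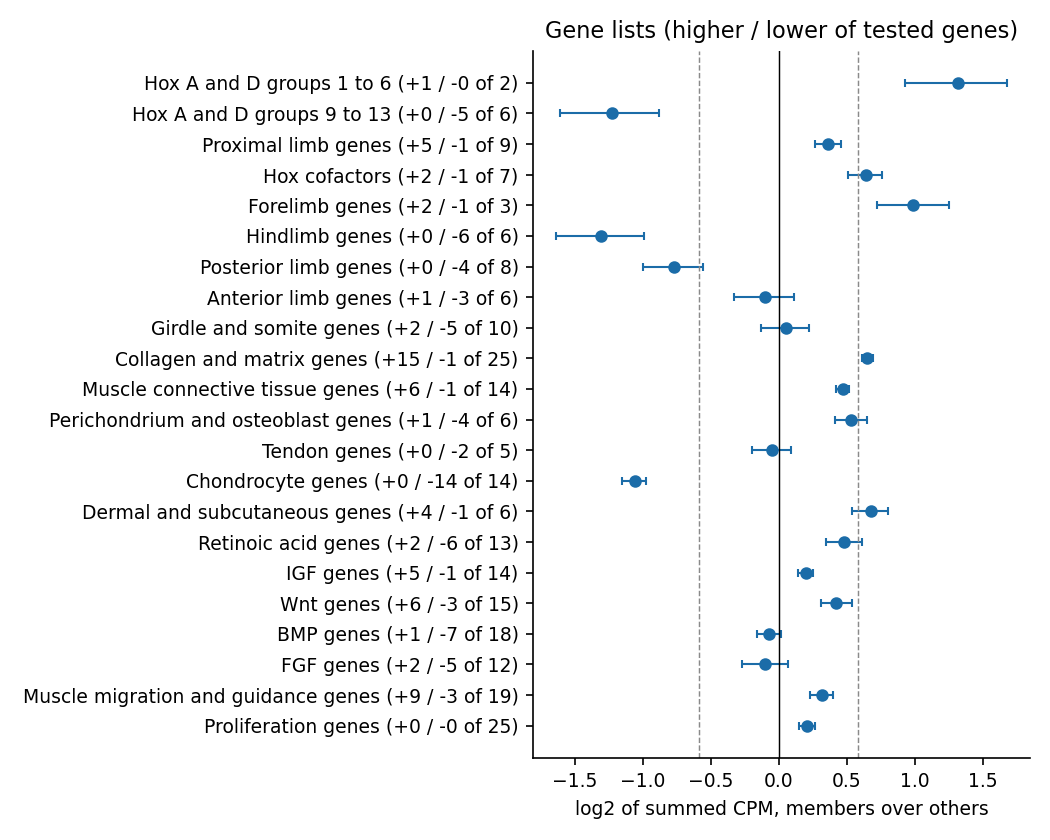
Points are the log2 ratios of each list's summed CPM in members over other kept barcodes with 95% intervals, dashed lines mark 1.5-fold, and labels give how many tested genes were higher and lower. Marker lists of other cell types are not drawn. Among the lists drawn, posterior Hox genes, hindlimb genes and chondrocyte genes stood lowest, and anterior Hox genes and forelimb genes highest. The hindlimb list holds Hoxc9, Hoxc10 and Hoxc11, and the forelimb list holds Hoxc4 and Hoxc6.

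The genes that guide muscle cells and axons into the limb were shifted in part. Of 19 measured genes 9 were higher and 3 lower. Sema5a was at 385 against 146 CPM, the netrin Ntn1 at 48.4 against 21.3, Slit2 at 88.5 against 45.9 and Efna5 at 139 against 66.2 CPM. Cxcl12, a chemokine for migrating muscle precursors, was at 185 against 102 CPM. Hgf, the factor that frees these precursors from the somite, had a log2 ratio of 0.75 (-0.32 to 1.65), and its 10 UMIs came from 4 members. Epha7, Sema3c and Sema3d were lower, Epha7 at 116 against 271 CPM.

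Genes of the growth factor axis on which Pappa2 acts were high in part. Pappa2 frees insulin-like growth factors by cutting their binding proteins Igfbp3 and Igfbp5. Igf1 was at 335 against 106 CPM (log2 ratio 1.66, 1.42 to 1.88), Igfbp5 at 1188 against 675 CPM and Igfbp3 at 198 against 98.3 CPM. Pappa, the paralogue of Pappa2, was at 63.2 against 28.5 CPM, but under the limit without doublet-scored barcodes (log2 ratio 0.57). Stc1, of a family that inhibits both proteases, was at 21.1 against 10.7 CPM. It rested on 10 UMIs in 8 members, with a log2 ratio of 0.98 (-0.09 to 1.88). Igf2, the main fetal form, did not differ by the limit (1854 against 1975 CPM), nor did the receptor Igf1r (215 against 282 CPM). In all 5 of 14 measured genes of this list were higher and 1, Igfbp7, lower. These levels were not highest in the members with Pappa2: Igf1 was at 324 CPM there and 542 CPM in those with C1qtnf3, Igfbp5 at 1137 and 1999, and Igfbp3 at 136 and 350.0 CPM. Among relatives of C1qtnf3, C1qtnf7 had 10 UMIs in 9 members (21.1 against 2.06 CPM), and C1qtnf1, C1qtnf5, C1qtnf9 and Adipoq were at 0.

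Signalling genes followed several directions. In the Wnt list 6 of 15 measured genes were higher and 3 lower. Axin2 and Lef1, which respond to Wnt signals, were at 126 against 42.3 and 128 against 53.0 CPM, the inhibitors Dkk2 and Sfrp1 at 185 against 94.0 and 211 against 127 CPM, and the inhibitors Frzb and Sfrp2 at 10.5 against 37.6 and 99.0 against 215 CPM. Of 18 BMP genes 1 was higher and 7 lower. The higher one was Fstl1 (849 against 503 CPM), and Bmp2 (14.7 against 55.5 CPM), its antagonist Nog (8.43 against 25.3) and the target Id1 (194 against 387) were among the lower ones. Of 12 FGF genes 2 were higher and 5 lower. Fgf7, a mesenchymal factor that acts on epithelium, had 23 UMIs in 20 members (48.4 against 10.2 CPM).

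Retinoic acid, made by Aldh1a enzymes and broken down by Cyp26 enzymes, sustains proximal fate in the limb bud. Crabp1, which binds retinoic acid in the cell, was higher, at 377 against 162 CPM. Cyp26b1 was lower at 16.9 against 49.9 CPM. Aldh1a3 had 21 UMIs in 12 members, at 44.2 against 3.45 CPM, while Aldh1a2 had 3 (6.32 against 14.1 CPM). In total 2 of 13 measured genes of the list were higher and 6 lower. The receptor gene Rarb was at 19.0 against 7.72 CPM, on 9 UMIs.

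None of 25 proliferation genes passed the limit either way, and their sum was 4868 CPM in members and 4200 in the others. It was 7907 CPM in the members of cluster 8 and 2124 and 1935 CPM in those of clusters 2 and 15. Cdkn1c, a brake on the cell cycle, was at 1567 against 2117 CPM and within the limit. The only call among 6 measured D cyclins and inhibitors was Cdkn1a, lower on 1 UMI in members.

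Among genes at 25 CPM or more, ranked over the whole library, the highest ratios belonged to Akap12, Irx3, Lix1, Tagln, Tmem132c, Emp1, Map1b, Ogn, Col6a1, Emx2os, Gm49708, Cxcl14, Igf1, Arl4c and Lum. Of these, Lix1, Tmem132c, Emx2os and Gm49708 were also among the 10 leading genes of cluster 15, and Igf1 among those of cluster 2. Members were 8.18% and 2.35% of the barcodes of these clusters. Akap12, a scaffold of protein kinase A, was at 295 against 53.9 CPM (log2 ratio 2.45, 2.19 to 2.70), with a UMI in 56 members. It was also found in thinned endothelial barcodes (95% interval of the share 27.2 to 43.4%), and in 36.9% of members. Lix1 was at 177 against 42.1 CPM and Map1b, a microtubule protein, at 1.77 on the log2 scale with a UMI in 91 members. Emx2os lies on the strand opposite to Emx2 and shares 264 exon bases with it. The neuronal gene Stmn2 was higher too, with 22 UMIs in 8 members, up to 7 in 1 of them, but within male and within female barcodes its log2 ratio was -0.10 and -1.04. Of the other neuron genes, Gap43 was at 118 against 55.1 CPM, Snap25 at 8.43 against 1.15 and Tubb3 at 6.32 against 1.83 CPM, the last 2 on 4 and 3 UMIs. Elavl3 and Elavl4 had none, but their levels in the others, 0.236 and 2.68 CPM, are under the floor of 6.32 CPM. The lowest ratios belonged to Neb, Ttn, Actc1 and Mylpf of muscle fibres, to 5 globin genes (Hba-a1, Hbb-y, Hbb-bh1, Hba-x and Hba-a2) and to Stxbp6. The muscle genes are low in part through the rule, which removes Myog and Myf5 barcodes. Against barcodes with under 1% globin UMIs, Hbb-y, Hbb-bh1 and Hba-x were no longer past the limit (log2 ratios -0.38, -0.37 and -0.20), and Hba-a1 and Hba-a2 were at -1.03 and -0.77. Stxbp6, with 1 UMI in members, had a log2 ratio of -0.08 among male barcodes. Thinned shares for the embryonic globins Hbb-y and Hba-x were 19.4% in members and 23.1% in the others.

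The members were not uniform. Those with Pappa2 and those with C1qtnf3 differed in genes that had no part in the rule, and 1 barcode belongs to both sets. Irx3 was at 261 CPM (191 to 349) in the 44 members with Pappa2, at 22.6 CPM (2.73 to 81.6) in the 21 with C1qtnf3 and at 65.3 CPM in the 47 with Hoxb4 and Hoxc5 alone. Lix1 was at 369, 22.6 and 79.3 CPM in the same order, the Wnt inhibitor Apcdd1 at 301, 22.6 and 83.9 CPM, and Lef1 at 239, 22.6 and 83.9 CPM. Tbx15 was at 250.1, 22.6 and 219 CPM, so here the Hox-only members were like those with Pappa2. The value of 22.6 CPM stands for 2 UMIs each time. In the other direction Egfl6 was at 45.5 CPM with Pappa2 and 226 CPM with C1qtnf3, and Ebf2 at 34.1 and 113 CPM with overlapping intervals, beside Igfbp3 and Igfbp5 as given above. Col2a1 was at 176 CPM with Pappa2, 813 CPM with C1qtnf3 and 448 CPM in the Hox-only members. In the same order, 13.6%, 28.6% and 38.3% of the barcodes were doublet-scored, and the part of doublets in these differences was not tested. Meis2 (529, 418 and 406 CPM) and Igf1 (324, 542 and 261 CPM) were above the 190.2 and 106 CPM of the other barcodes in all 3 sets.

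**Figure D5:**
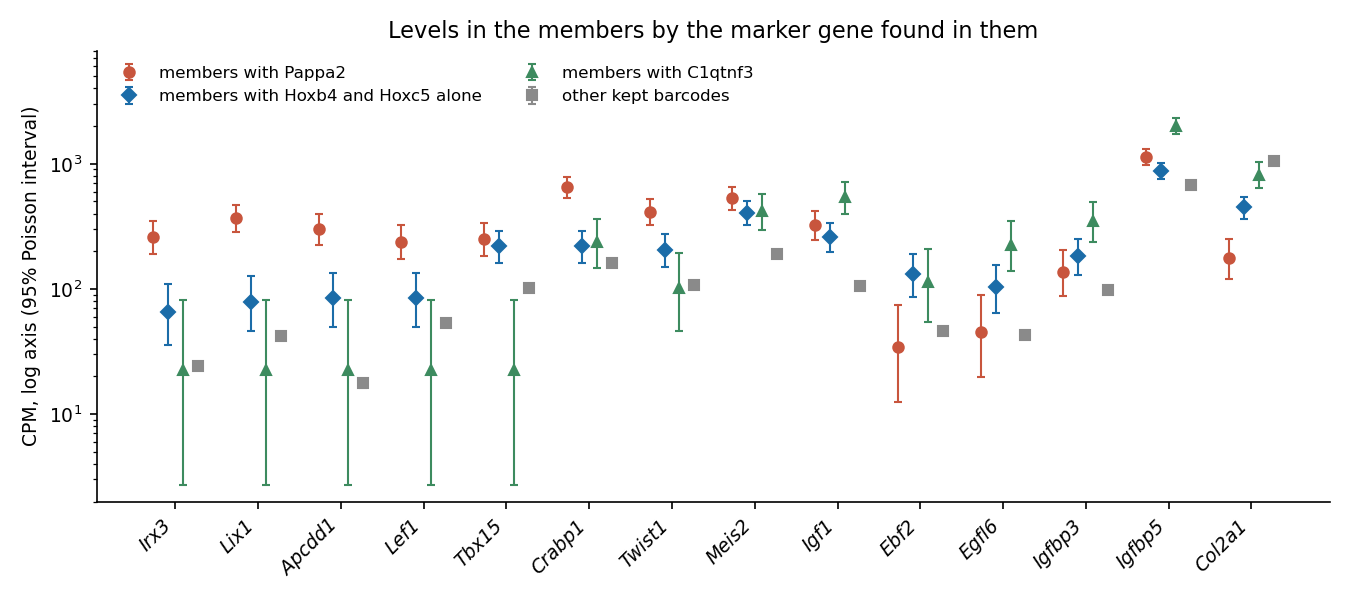
Points are CPM on a log axis with 95% Poisson intervals in the members with Pappa2, with Hoxb4 and Hoxc5 alone and with C1qtnf3, and in the other kept barcodes. Irx3, Lix1, Apcdd1 and Lef1 were highest with Pappa2, Egfl6, Igfbp3 and Igfbp5 with C1qtnf3, and Meis2 was above the other barcodes in each set.

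The sum of Hox groups 1 to 8 varied less between these sets than Irx3 or Lix1 did. Groups 1 to 8 without the rule genes were at 472 CPM with Pappa2, 406 CPM with C1qtnf3 and 555 CPM in the Hox-only members, all above the 174 CPM of the other kept barcodes. Hoxc4 was at 131, 56.5 and 83.9 CPM. Single groups varied more. In the same order, group 5 was at 28.4, 79.0 and 135 CPM, and group 4 at 159, 67.7 and 103 CPM with overlapping intervals. Hoxa5 had 1 UMI (5.68 CPM) in the members with Pappa2, 56.5 CPM with C1qtnf3 and 83.9 CPM in the Hox-only set. Groups 9 to 13 were at 136, 294 and 187 CPM. The sets also differed in their share of doublet-scored barcodes, as given above.

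Sex could be read from Xist and Y-linked genes. Of members with a UMI of only 1 kind, 25 were male and 46 female, which is 35.2% male (24.2 to 47.5), against 22.2% (21.3 to 23.1) of the others. UMIs of both kinds, which a droplet with cells of both sexes would have, were found in 16 of 111 members and in 596 of 12160 others. The members were also deeper, and the part of either was not tested. It was 52.9% in the members of cluster 2 and 16.7% in those of cluster 15, on 17 and 18 barcodes. The sexes stand for different embryos, and whether this moves with the gene differences was followed only by the comparison within each sex. There Irx3 had log2 ratios of 1.24 and 3.02 in male and female barcodes, while Lef1 was lower in male members (-0.43).

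Barcodes chosen by like rules for other connective tissue genes were compared as neighbours: 74 with Aldh1a2 and Ebf2, 69 with Isl1 and Irx3, and 128 with at least 2 of Rspo3, Hhip and Apela. They overlapped with the members in 1, 1 and 6 barcodes, which were left out of the neighbours. Their Hox groups 1 to 8 without the rule genes were at 217, 175 and 165 CPM, against 501 CPM in the members, and groups 9 to 13 at 508, 526 and 548 CPM, against 189.6 CPM. Irx3, part of the second rule, was at 7.36 CPM in the first and 29.8 CPM in the third, and Meis2 at 456, 459 and 98.7 CPM. Igf1 was at 177, 113 and 165 CPM, all under the 335 CPM of the members. No replicate stands behind these differences, and they are not tests.

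At E15.5 the same rule chose 55 of 4106 kept barcodes (1.34%, 1.01 to 1.74), through C1qtnf3 in 42 of them and Pappa2 in 31, with Hoxb4 in 25 and Hoxc5 in 16. That library was deeper, with a median of 9518 UMIs against 2453. After thinning to 2000 UMIs the rule chose 42 of 8212 barcodes at E12.5 (0.511%, 0.369 to 0.691) and 4 of 3834 at E15.5 (0.104%, 0.0284 to 0.267). Over all kept barcodes Hoxc5 was at 13.5 CPM at E12.5 and 1.68 CPM at E15.5, and Hoxb4 at 14.3 and 5.54 CPM. Pappa2 was at 4.21 and 8.77 CPM and C1qtnf3 was higher at E15.5 by 2.73 on the log2 scale, so the rule genes moved in opposite directions between the libraries. The barcodes chosen at E15.5 had 18.5 CPM of Irx3, 88.5 CPM of Meis2 and 19.8 CPM of Hoxc4, where the members at E12.5 had 131, 453 and 96.9 CPM. Akap12 and Igf1 were at 467 and 752 CPM, where the members had 295 and 335 CPM. Over all kept barcodes these genes differed in the same directions: Irx3 was at 25.6 CPM at E12.5 and 8.86 CPM at E15.5, Meis2 at 194 and 85.9, Hoxc4 at 16.7 and 5.22, Akap12 at 57.2 and 311, and Igf1 at 109 and 473 CPM. Age and library cannot be told apart here, and the barcodes chosen at the later age are not shown to be the same cells.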

How the data were processed

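Droplet libraries (10x 3′ v3.1 kit, per the labels) gave 1 matrix per age. Each value the authors deposited is a raw UMI count, not normalized. The file headers name Cell Ranger 4.0.0, and the submitters' processing notes also name Seurat 4.3.0 and build mm10, and the annotation release is not given in the sources used here. Barcodes with at least 500 genes and under 10% mitochondrial UMIs were kept (12271 of 12941 at E12.5, 4106 of 5780 at E15.5). Summed counts of members and other kept barcodes were compared as CPM with exact Poisson intervals, ratios with exact conditional intervals and shares with Clopper-Pearson intervals, all at 95%. Genes at 10 CPM or more were called at 1.5-fold, and a 0 was set to a floor of 3 counts, or given no value where that floor lay on the other side. The ratio script was tested on simulated data. Doublets were scored against simulated doublets (2 per barcode), and the highest 10.3% were marked. Clusters came from 2000 variable genes, 30 principal components, 15 neighbours and Leiden clustering at resolution 1.0. Neither step is the authors'.

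Positions come from GENCODE vM21 (GRCm38), where all 113 genes looked up were found. Named genes were the listed genes, and the 15 highest and 10 lowest ratios at 25 CPM or more that also passed 1.5-fold against exclusion-gene-free barcodes weighted to the members' depth. Members and lists were chosen with earlier results of these data known. Alternatives covered the comparator, depth, doublets, the rule, filters and the CPM minimum. Python 3.11.15, numpy 2.4.6, scipy 1.17.1, scikit-learn 1.9.0, leidenalg 0.10.2, igraph 0.11.9, pandas 2.3.3 and matplotlib 3.10.9 were used. Some genes of the lists are counted but not reported by name here.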

Additional observations from a re-analysis of the deposited data

How the results depend on the processing

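The limits are the single library per age, low UMI numbers per gene and a rule that rests on single UMIs. The rule gave 10 members with at least 3 rule genes, and 37 each without Hoxb4 or without Hoxc5. The 677 higher genes became 1096 after thinning to 2000 UMIs, 2153 with at least 3 rule genes, 1365 without Hoxb4, 1413 without Hoxc5, 1301 for genes at 3 CPM or more, 164 at 50 CPM or more, 1538 in male and 1191 in female barcodes. The 1139 lower genes became 1892 without Hoxc5, 1899 at 3 CPM or more and 173 at 50 CPM or more. The median log2 ratio of Hox groups 1 to 8 (0.49) was 0.81 without doublet-scored barcodes, -0.31 without Hoxb4, 1.28 at 3 CPM or more and 1.01 in male barcodes. That of groups 9 to 13 (-1.14) was -1.81 without doublet-scored barcodes and -0.58 outside cluster 8. The share at E15.5 was 0.104% after thinning. Of 1287 values for 77 genes under 17 alternatives, 8 changed sign: with at least 3 rule genes Cxcl12 (-0.75), Egfl6 (-1.11) and Hoxc6 (-0.40), without Hoxb4 Ebf2 (-0.39) and Hoxa5 (-1.83), in male barcodes Lef1 (-0.43) and Stmn2 (-0.10), and in female barcodes Stmn2 (-1.04). The causes were not tested. Of 25 genes named by rank, 21 stayed past 1.5-fold the same way under every alternative run for them. The 50 CPM minimum, the comparison without globin-rich barcodes, the split by sex, the removal of cluster 8 and the summed Hox, Irx, Meis, Pitx1 and Tbx4 levels under other rules were chosen after seeing the data. Neither Hox median had a value after thinning, with at least 3 rule genes or in female barcodes, that of groups 9 to 13 also not in male barcodes or without Hoxb4 or Hoxc5, and that of groups 1 to 8 not at 50 CPM or more, because genes with 0 UMIs had no ratio or no gene was left. No paired analysis was possible because each age has 1 library and no test was run.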
